A study of Canis lupus familiaris with 24 samples.

Results

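Glycolysis and hypoxia genes are a list of 36 gene symbols, grouped here because many of the genes that turn glucose into lactate are also induced when oxygen is scarce. A symbol was matched exactly to the symbol column of the deposited count table. Of the 36 symbols, 31 were found among 32704 genes, and all 31 passed the filter on low counts that left 12466 genes for testing. ALDOA, PKM, LDHA, PDK1 and BNIP3L matched no symbol and are not analysed here.

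Glycolysis splits glucose into pyruvate, which is reduced to lactate and exported when it is not oxidised in mitochondria. In hypoxia the transcription factor HIF escapes the oxygen-dependent prolyl hydroxylases that mark its alpha subunit for destruction, and it then raises glucose transporters, glycolytic enzymes, the lactate exporter, membrane carbonic anhydrases and factors such as VEGFA. HIF1A is regulated mainly as a protein, so its mRNA level does not report its activity. Kidney tubule epithelium is known for this response.

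The cells were MDCK, established epithelial cells from dog kidney, as the lines labelled MDCK-II and MDCK-NBL2. Each line was sequenced as stranded mRNA at day 0 untreated, at day 4 untreated and after 4 days of TGFb, which is a growth factor able to turn epithelial into mesenchymal cells. Further MDCK-NBL2 cells had TGFb for 4 days plus control siRNA (siCTR) or siRNA that targets PRRX1, a transcription factor of mesenchyme (siPRRX1). The phenotype labels read epithelial for untreated cells, full transition for MDCK-NBL2 with TGFb, and partial transition for MDCK-II with TGFb and for MDCK-NBL2 with TGFb and siPRRX1. Each of the 8 groups had 3 libraries, numbered 1 to 3. The labels do not say whether replicates are separate cultures, so a p-value here speaks only for the library-to-library spread, which may be technical. Each line stands for itself alone, and the sources used here give neither cell density nor oxygen.

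Total counts ran from 6134929 to 27567296 per library. Levels below are in CPM (counts per 1000000 after TMM scaling), compared between groups and not between genes, as gene lengths were not used. In untreated MDCK-NBL2 at day 4, the library labelled replicate 2 stood apart. TGFBI, a matrix protein induced by TGFb, was at 1583 CPM in it against 0.325 and 0.229 CPM in replicates 1 and 3. Its fibroblast markers summed to 609 CPM against 29.2 and 2.52 CPM, and on the first principal component of log2 levels over the genes tested it lay at 59.3 against -4.85 and -20, with the TGFb-treated MDCK-NBL2 libraries at 80.7 to 98.7. Calls that use its group are therefore also given without it. The library labelled MDCK-NBL2 day 0 replicate 1 held 10 genes typical of MDCK-II at 11.9% (median) of the mean in that line, where no other MDCK-NBL2 library exceeded 0.501%. These genes were chosen here as at least 20 CPM in every MDCK-II library and with a median under 1% of that mean over the MDCK-NBL2 libraries. Low values in most MDCK-NBL2 libraries therefore follow from the choice. The 8 kidney epithelium markers in the table summed to between 2474 and 7629 CPM in every library, although CDH16 had no count in the 3 groups of TGFb-treated MDCK-NBL2 and 6 of the 8 fell with TGFb in that line. Fibroblast markers (6 of 6 in the table) summed to at most 48.3 CPM in MDCK-II, to at most 5.47 CPM in MDCK-NBL2 at day 0 and to between 895 and 2157 CPM in TGFb-treated MDCK-NBL2, with PDGFRB at 0 there. Endothelial and leukocyte markers summed to at most 9.6 and 11.1 CPM. In bulk RNA, a smaller share of cells and less RNA per cell cannot be told apart.

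**Figure D1:**
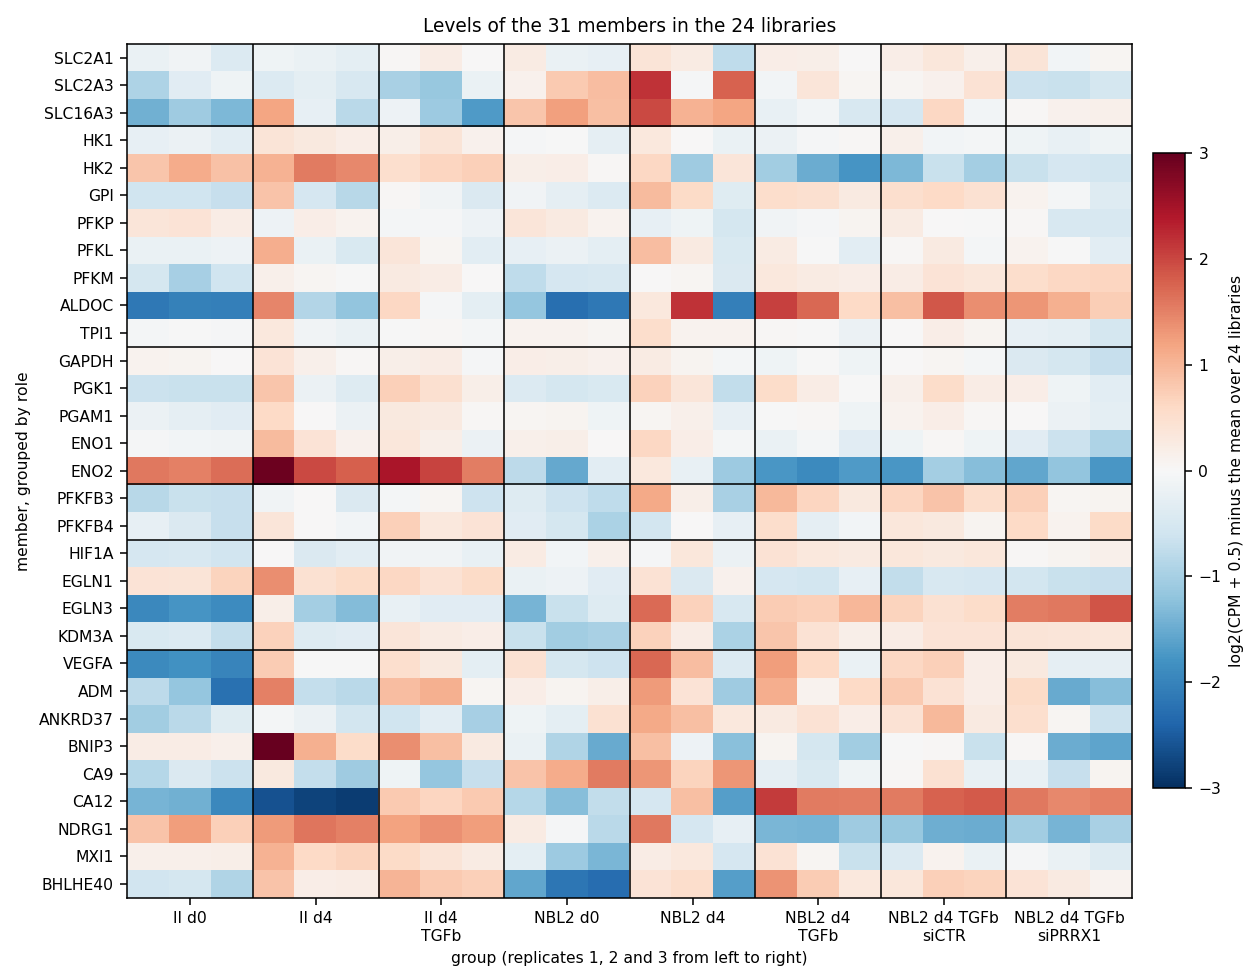
Heat map of log2(CPM + 0.5) minus the gene's mean over all 24 libraries, for the 31 members (vertical axis, grouped by role from transporters at the top to other hypoxia-inducible genes at the bottom) and the 8 groups with replicates 1 to 3 from left to right (horizontal axis). ENO2, HK2 and NDRG1 were high in MDCK-II and low in TGFb-treated MDCK-NBL2, CA12 was high in the TGFb-treated groups of both lines, and replicate 1 of untreated cells at day 4 was high for many members in both lines.

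The members differed widely in how far they moved over the 8 groups. The smallest range of group means was that of PGAM1, the phosphoglycerate mutase, from 288 to 395 CPM, a ratio of 1.37. SLC2A1, the basal glucose transporter, ranged from 1186 to 1631 CPM (1.38), HK1, the hexokinase of most tissues, from 278 to 403 CPM (1.45), and GAPDH, the enzyme that oxidises glyceraldehyde phosphate, from 1753 to 2957 CPM (1.69). The largest ratios were those of ENO2 and CA12. CA12, a carbonic anhydrase of the cell surface, ranged from 22.8 CPM in untreated MDCK-II at day 4 to 525 CPM in MDCK-NBL2 with TGFb. ENO2, the neuronal enolase isoform, ranged from 1.11 to 27.2 CPM (24.5). HK2, the inducible hexokinase, lay between these extremes, from 46 to 314 CPM (6.82). The heat map of the 31 members shows these patterns by library. GAPDH, PGK1, PGAM1, TPI1 and ENO1 have near-identical processed copies in mammalian genomes, and how reads were shared among such copies is not stated, so their values are uncertain to that degree.

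The lines already differed at day 0, before any treatment. Of the 31 members, 6 were higher in MDCK-NBL2 than in MDCK-II and 6 were lower, against 14.8% and 13.8% of the 12466 genes tested (higher and lower, adjusted p under 0.05). The members' median log2 difference was 0.15, with -0.04 over all genes. The monocarboxylate transporter SLC16A3, which exports lactate, and the carbonic anhydrase CA9 were higher in MDCK-NBL2, while the isoforms ENO2 and HK2 were lower.

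Both transporter calls were higher in MDCK-NBL2. SLC16A3 was at 67.8, 89.6 and 72 CPM in MDCK-NBL2 and at 13.8, 18.1 and 14.6 CPM in MDCK-II, a log2 difference of 2.30 ± 0.43 (SE; adjusted p = 0.000439). The groups were far apart. SLC2A3, a high-affinity glucose transporter, was low in both lines, at 0.97, 1.82 and 2.02 CPM against 0.207, 0.55 and 0.72 CPM (1.72 ± 0.60, adjusted p = 0.0387). SLC2A1 was at 1348 ± 267 and 1186 ± 130 CPM (SD, n = 3), with no call (0.19 ± 0.21, adjusted p = 0.569).

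Among the enzymes, HK2 and ENO2 differed. HK2 was at 139, 141 and 126 CPM in MDCK-NBL2 and at 217, 266 and 224 CPM in MDCK-II (-0.80 ± 0.28, adjusted p = 0.0389). ENO2 was at 2.7, 1.39 and 3.91 CPM against 16.1, 15.3 and 17.2 CPM (-2.70 ± 0.40, adjusted p = 3.58e-05). Neither pair of groups overlapped. The housekeeping partners HK1 and ENO1 were at 306 ± 28.1 and 645 ± 38 CPM in MDCK-NBL2 and at 278 ± 12.5 and 562 ± 12.6 CPM in MDCK-II, and neither passed the test (0.14 ± 0.12, adjusted p = 0.436; 0.20 ± 0.20, adjusted p = 0.501). None of the other enzymes, nor PFKFB3 and PFKFB4, which set the level of the activator of phosphofructokinase, was called.

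Of the oxygen-sensing genes, HIF1A, the alpha subunit of HIF, was at 325, 258 and 304 CPM in MDCK-NBL2 and at 194, 196 and 184 CPM in MDCK-II (0.63 ± 0.13, adjusted p = 0.000808). EGLN1, the main prolyl hydroxylase acting on HIF, was lower in MDCK-NBL2, at 55.8, 57.7 and 50.8 CPM against 86.1, 84.7 and 102 CPM (-0.73 ± 0.21, adjusted p = 0.0112). EGLN3, a hydroxylase of the same family that HIF itself induces, was higher, at 10.1, 17 and 20.7 CPM against 6.83, 7.62 and 7.08 CPM (1.14 ± 0.42, adjusted p = 0.0462). The hydroxylases thus lay on opposite sides, and no library of one line reached the values of the other for any of these genes. KDM3A, an oxygen-dependent histone demethylase, was at 40 ± 5.62 and 51.7 ± 5.65 CPM and had no call (adjusted p = 0.395).

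The remaining hypoxia-inducible genes split in the same way. CA9 was at 2.29, 2.84 and 4.04 CPM in MDCK-NBL2 against 0.345, 0.629 and 0.48 CPM (2.57 ± 0.52, adjusted p = 0.000899). The angiogenic factor VEGFA was at 231, 116 and 109 CPM against 44.1, 47.1 and 42.1 CPM (1.78 ± 0.43, adjusted p = 0.00406). MXI1, an antagonist of MYC, was at 38.4, 22.2 and 18.2 CPM against 53, 52.8 and 53.9 CPM (-1.01 ± 0.27, adjusted p = 0.00754). In each case the 3 libraries of one line lay on one side of the other 3, and MDCK-NBL2 replicate 1 was the highest of its group for VEGFA and MXI1. NDRG1, a stress-response gene of differentiated epithelium, was lower at 505 ± 175 against 1079 ± 215 CPM (-1.09 ± 0.37, adjusted p = 0.0332). The transcriptional repressor BHLHE40 was lower at 58 ± 16.5 against 144 ± 20.2 CPM (-1.31 ± 0.37, adjusted p = 0.0121).

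Without MDCK-NBL2 replicate 1, the library that held MDCK-II genes, the other 11 calls were kept and HK2 was not. The HK2 call was lost without any one of the 6 libraries (adjusted p from 0.0594 to 0.126), and EGLN3 was lost without any except MDCK-NBL2 replicate 1 (0.0986 to 0.153). NDRG1 and SLC2A3 were lost without MDCK-II replicates 1 or 2 or MDCK-NBL2 replicates 2 or 3 (0.0566 to 0.152 for NDRG1 and 0.0867 to 0.157 for SLC2A3). EGLN1 was lost without MDCK-II replicate 3 (0.0505), and BHLHE40 without MDCK-NBL2 replicates 2 or 3 (0.055 and 0.0568). The other 6 calls, SLC16A3, ENO2, HIF1A, CA9, VEGFA and MXI1, were kept with every library left out in turn.

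Of 46 other glycolysis and glucose genes listed beside the members, 32 were tested, and 7 were higher and 9 lower in MDCK-NBL2 at day 0. Over all genes 14.8% were higher and 13.8% lower. SLC2A10, a further glucose transporter, had no count in MDCK-II and 492 counts in MDCK-NBL2, at least 152-fold higher if MDCK-II is set to 3 counts over its libraries. LDHD, the lactate dehydrogenase for the D form, had 116 counts against 3, a ratio of 35.8 with an exact 95% interval of 12 to 176 that covers counting error only. G6PC3, a glucose phosphatase, was lower (-1.12 ± 0.13, adjusted p = 2.24e-06), as was the pyruvate dehydrogenase kinase PDK2 (-1.35 ± 0.17, adjusted p = 6.87e-06). Of 46 other hypoxia genes, 40 were tested, and 3 were higher and 3 lower. Among them were EPAS1, which encodes the second HIF alpha subunit (1.75 ± 0.34, adjusted p = 0.000618), and the secreted glycoprotein STC1, at 3576 CPM in MDCK-II and 335 CPM in MDCK-NBL2 on average (-3.42 ± 0.53, adjusted p = 5.82e-05).

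From day 0 to day 4 without treatment, members rose in both lines. In MDCK-II 7 rose and none fell, against 5.76% of genes tested rising and 4.05% falling, and the members' median was 0.58 with -0.00 over all genes. In MDCK-NBL2 6 rose and 1 fell, against 12.4% and 5.26% of genes, with a median of 0.59 against 0.06 over all genes. PFKM, the muscle isoform of phosphofructokinase, ALDOC, an aldolase isoform, and EGLN3 rose in both. Over the same days the summed dividing cell markers were between 998 and 1181 CPM at day 0 and between 533 and 805 CPM at day 4 in MDCK-II, and between 904 and 1429 and between 86.5 and 1080 CPM in MDCK-NBL2. The summed kidney epithelium markers were between 2985 and 3006 and between 3289 and 4707 CPM in MDCK-II, and between 2888 and 3865 and between 4281 and 7629 CPM in MDCK-NBL2, and the part of either in the members' changes was not tested.

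The rise in MDCK-II spanned lactate export, enzymes and hypoxia-inducible genes. SLC16A3 went from 13.8, 18.1 and 14.6 CPM at day 0 to 86.8, 32.1 and 21.7 CPM at day 4, a log2 change of 1.59 ± 0.43 (adjusted p = 0.0243). PFKM went from 17.3, 12.3 and 16.6 to 28.1, 26.2 and 24.9 CPM (0.79 ± 0.14, adjusted p = 0.00171). HK1 went from 276, 291 and 266 to 428, 402 and 377 CPM (0.54 ± 0.12, adjusted p = 0.00896). HK1 was tight at both days and PFKM at day 4, whereas SLC16A3 was widely spread over the day 4 libraries with replicate 1 on top. ALDOC went from 10.6, 11.5 and 11.3 to 136, 26.2 and 21 CPM (2.45 ± 0.77, adjusted p = 0.0496). EGLN3 went from 6.83, 7.62 and 7.08 to 31, 13.3 and 10.7 CPM (1.35 ± 0.41, adjusted p = 0.044). For both, every day 4 library exceeded every day 0 library, with replicate 1 far above the rest.

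VEGFA rose in MDCK-II from 44.1, 47.1 and 42.1 to 285, 167 and 165 CPM, by 2.21 ± 0.44 (adjusted p = 0.00394). BNIP3, a mitochondrial receptor that marks mitochondria for autophagy, went from 36.2, 36.3 and 34.3 to 361, 65.2 and 45.4 CPM (2.14 ± 0.66, adjusted p = 0.0445). Replicate 1 was again the highest for both, and for BNIP3 it stood far above the others. The trunk enzymes stayed under the threshold: PGK1, which makes the first ATP of the pathway, was at 210 ± 3.14 and 379 ± 181 CPM (adjusted p = 0.072), and ENO1 at 562 ± 12.6 and 861 ± 255 CPM (adjusted p = 0.0541).

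In MDCK-NBL2 the 7 calls were 3 enzymes of upper glycolysis, 2 oxygen-sensing genes and 2 other hypoxia-inducible genes. ALDOC went from 21.5, 9.66 and 10.6 CPM at day 0 to 60.7, 221 and 11.4 CPM at day 4 (2.82 ± 0.78, adjusted p = 0.0206). PFKM went from 14.6, 17.6 and 17.8 to 25.5, 26.4 and 18.5 CPM (0.50 ± 0.14, adjusted p = 0.0209). PFKP, the platelet phosphofructokinase isoform, fell from 552, 510 and 457 to 358, 393 and 298 CPM (-0.53 ± 0.14, adjusted p = 0.0195). Thus 1 phosphofructokinase isoform rose and another fell, without overlap in either case, while the liver isoform PFKL was not called (0.59 ± 0.32, adjusted p = 0.188). For ALDOC the groups overlapped, since replicate 3 at day 4 stayed near its day 0 level. The overlap was with day 0 replicate 1 (21.5 CPM), the library that held MDCK-II genes.

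EGLN3 went from 10.1, 17 and 20.7 to 89.6, 44.1 and 19.4 CPM in MDCK-NBL2 (1.70 ± 0.40, adjusted p = 0.0107). KDM3A went from 46.4, 35.9 and 37.7 to 120, 87.6 and 38.2 CPM (1.04 ± 0.30, adjusted p = 0.0256). BHLHE40 went from 77, 50.4 and 46.7 to 303, 330 and 72.7 CPM (2.02 ± 0.38, adjusted p = 0.0041). In each of these, replicate 3 at day 4 lay within the day 0 range, and the largest values were in replicates 1 and 2. For KDM3A and BHLHE40 the top of that range was day 0 replicate 1, the library that held MDCK-II genes. Replicate 3 at day 4 lay above day 0 replicates 2 and 3, barely for KDM3A and by more for BHLHE40. MXI1 rose from 26.3 ± 10.7 to 49.4 ± 13.9 CPM (0.91 ± 0.27, adjusted p = 0.0271), and replicate 3 at day 4 (33.5 CPM) again lay within the day 0 range. Day 0 replicate 1 (38.4 CPM) again set the top of that range, with 22.2 and 18.2 CPM in day 0 replicates 2 and 3.

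**Figure D2:**
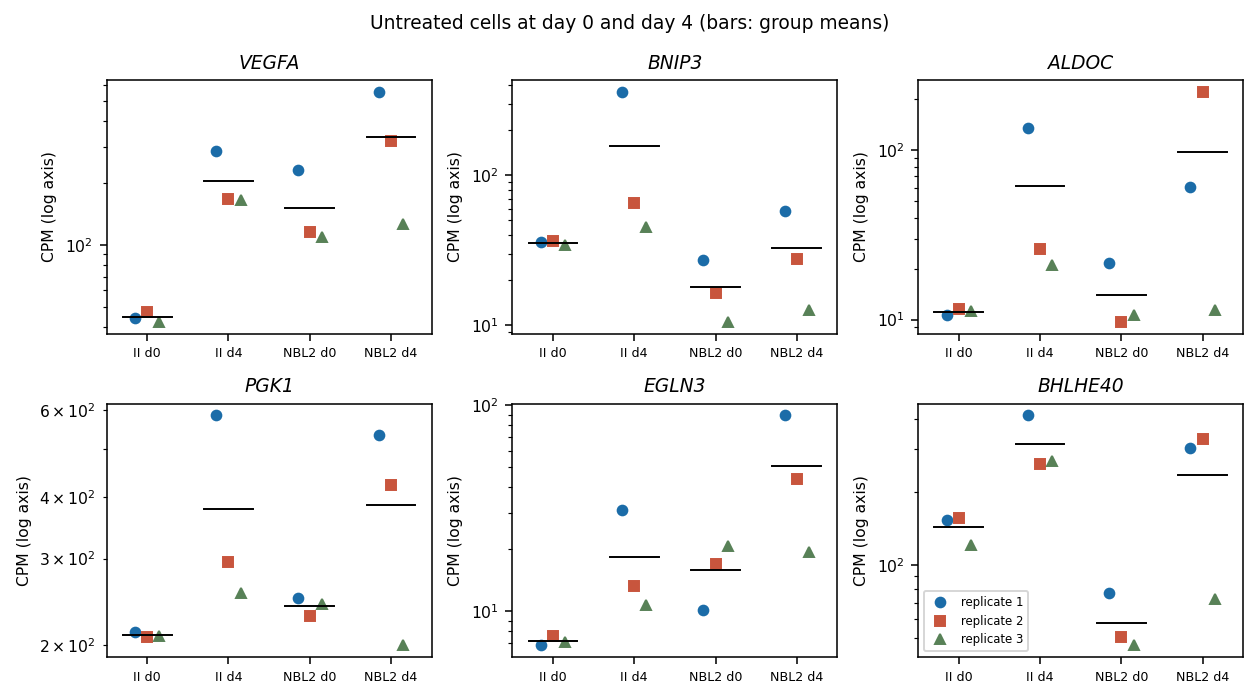
Levels (CPM, log axis) of 6 members in untreated MDCK-II (II) and MDCK-NBL2 (NBL2) at day 0 (d0) and day 4 (d4), with a symbol per replicate and a bar at each group mean. Replicates lay close together at day 0 in MDCK-II, while at day 4 BNIP3 ran from 45.4 to 361 CPM in MDCK-II and from 12.6 to 57.8 CPM in MDCK-NBL2.

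The members also differed between replicates of untreated cells at day 4. In untreated MDCK-II at day 4, 26 of 31 members had their highest level in replicate 1 and none in replicate 3, while replicate 1 was the highest for 44.2% of all genes tested. In untreated MDCK-NBL2 at day 4, 22 members were highest in replicate 1, 9 in replicate 2 and none in replicate 3, where replicate 1 was the highest for 31% of all genes. The median deviation of the members from their group mean was 0.43, -0.17 and -0.26 (log2) for replicates 1, 2 and 3 in MDCK-II and 0.43, 0.12 and -0.51 in MDCK-NBL2, with medians over all genes between -0.06 and 0.02. The ratio of the highest to the lowest replicate had a median over members of 1.12 at day 0 and 1.59 at day 4 in untreated MDCK-II, with 2 and 11 members over 2-fold. In untreated MDCK-NBL2 it was 1.3 and 2.48, with 8 and 17 members over 2-fold, and it was between 1.24 and 1.35 in the 4 TGFb-treated groups. Without the replicate 2 that stood apart the 2.48 became 1.81, with 15 members over 2-fold, over 2 libraries. The same ratios over all genes are not given here, so no trait particular to the members is read from them.

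The plot of untreated cells at day 0 and day 4 shows this ordering for 6 members. GPI, which converts glucose phosphate to fructose phosphate, was at 504, 195 and 157 CPM in MDCK-II and at 535, 416 and 216 CPM in MDCK-NBL2 at day 4. PFKFB3 was at 1067, 551 and 246 CPM in MDCK-NBL2. VEGFA was at 556, 319 and 126 CPM there. Replicate 1 was the highest and replicate 3 the lowest in each of these. Summed levels of the 3 dividing cell markers in the table were 533, 805 and 801 CPM in untreated MDCK-II at day 4 and 446, 86.5 and 1080 CPM in untreated MDCK-NBL2. The summed kidney epithelium markers were 4707, 3367 and 3289 CPM and then 7629, 5666 and 4281 CPM, highest in replicate 1 and lowest in replicate 3 as for most members. Mitochondrial genes took 6.41%, 5.04% and 5.89% and then 7.13%, 4.54% and 6.79% of counts. The part of these in the members' spread was not tested.

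Without MDCK-II day 4 replicate 1, only HK1, PFKM and VEGFA were still called in MDCK-II (3.03% of genes rose and 1.79% fell). VEGFA was then at 1.90 (adjusted p = 0.02), while ALDOC was at 1.09 (0.459), SLC16A3 at 0.80 (0.257), EGLN3 at 0.75 (0.334) and BNIP3 at 0.64 (0.589). The same 4 calls were lost without any single day 0 library (adjusted p from 0.0636 to 0.145). In MDCK-NBL2 without the replicate 2 that stood apart, 6 members were called: BHLHE40 (1.70, adjusted p = 0.00952), EGLN3, KDM3A, NDRG1 and SLC2A3 rose and PFKP fell, against 9.47% and 5.10% of genes. ALDOC was then at 1.41 (0.161), PFKM at 0.42 (0.0647) and MXI1 at 0.77 (0.078). Without replicate 3 of that group 16 members were called, where 41.7% of all genes were called in either direction, and without replicate 1 only 3, where 8.15% were, with KDM3A at 0.66 (0.156), MXI1 at 0.82 (0.0897), PFKM at 0.44 (0.0773) and EGLN3 at 1.02 (0.075). Of the MDCK-NBL2 calls, BHLHE40 alone was kept with every library left out. Leaving out a day 0 library of that line lost PFKP and PFKM (replicate 1; adjusted p = 0.0685 and 0.0818), PFKP, PFKM, ALDOC, KDM3A and MXI1 (replicate 2; 0.0527 to 0.113), and ALDOC, KDM3A and MXI1 (replicate 3; 0.0701 to 0.11).

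Genes outside the member list moved over these 4 days as well. Of the other hypoxia genes, 9 of 40 rose and 3 fell in MDCK-II, and 12 rose and 1 fell in MDCK-NBL2. Over all genes 5.76% rose and 4.05% fell in MDCK-II, and 12.4% rose and 5.26% fell in MDCK-NBL2. DDIT4, a stress-induced inhibitor of mTOR signalling, rose by 4.45 ± 0.75 in MDCK-II (adjusted p = 0.0013) and by 4.07 ± 0.74 in MDCK-NBL2 (adjusted p = 0.00378). HMOX1, heme oxygenase, changed by -2.73 ± 0.41 (adjusted p = 0.00054) and -1.93 ± 0.40 (adjusted p = 0.00622). Of the other glycolysis genes, 3 of 32 rose and 1 fell in MDCK-II, and 5 rose and 2 fell in MDCK-NBL2. PGM1, which feeds glycogen-derived glucose phosphate into glycolysis, rose in both lines (0.79 ± 0.14, adjusted p = 0.00166, and 0.61 ± 0.14, adjusted p = 0.0091). Without the library of each line named above, 3 hypoxia genes rose and 1 fell in MDCK-II and 8 rose and 3 fell in MDCK-NBL2, with DDIT4 and HMOX1 among them in both lines. The glycolysis counts were then 2 and 0 in MDCK-II and 7 and 3 in MDCK-NBL2, with PGM1 rising in both. Over all genes 3.03% then rose and 1.79% fell in MDCK-II, and 9.47% rose and 5.10% fell in MDCK-NBL2.

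TGFb changed few of these genes in MDCK-II, where CA12 was the exception. It rose from 25.1, 22.3 and 21.1 CPM in untreated cells at day 4 to 269, 243 and 269 CPM with TGFb, by 3.51 ± 0.41 on the log2 scale (adjusted p = 2.59e-05). The groups were far apart with little spread in either, and the call was kept under each alternative setting run. The other 30 members were not called, so that 1 member rose and none fell, while 11.8% of all genes tested rose and 9.27% fell. The members' median was -0.10, with -0.03 over all genes.

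Members nearest to a fall in MDCK-II were HK2 and SLC16A3. HK2 was at 252, 358 and 331 CPM untreated and at 173, 190 and 201 CPM with TGFb (-0.74 ± 0.28, adjusted p = 0.0656), without overlap. SLC16A3 was at 86.8, 32.1 and 21.7 CPM and at 34.1, 17.7 and 11.4 CPM (-1.16 ± 0.42, adjusted p = 0.056), lower within each replicate number though the groups overlapped. Same-numbered libraries of these 2 groups deviated together, and with the replicate number as a block in a fit of these groups alone, which tested 29 members, 5 were called. HK2 (-0.71, adjusted p = 0.00607), SLC16A3 (-1.04, adjusted p = 0.00454) and MXI1 (-0.35, adjusted p = 0.0469) then fell, and CA12 (3.52, adjusted p = 0.000107) and BHLHE40 (0.43, adjusted p = 0.0422) rose, against 15.7% of genes rising and 12.7% falling. With the block in the fit of all 24 libraries, CA12 and SLC16A3 were called, where 2822 of all genes were called in either direction.

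In MDCK-NBL2, TGFb lowered 7 members and raised 2, while 23.4% of all genes tested fell and 21.0% rose. The share of members that fell was close to that of all genes, and the share that rose was smaller. The median was -0.07 against -0.04 over all genes. Those that fell were the lactate exporter SLC16A3, the glucose transporter SLC2A3, the isoforms HK2 and ENO2, the hydroxylase EGLN1, CA9 and NDRG1. CA12 and PFKM rose.

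SLC16A3 fell from 152, 79 and 86.7 CPM to 32.6, 35.8 and 27.1 CPM, by 1.73 ± 0.43 on the log2 scale (adjusted p = 0.00317). SLC2A3 was at 5.48, 0.813 and 4.02 CPM untreated and at 0.767, 1.22 and 0.902 CPM with TGFb (-1.79 ± 0.59, adjusted p = 0.0194). SLC16A3 separated the groups completely, whereas untreated replicate 2 put SLC2A3 in the treated range. SLC2A1 was at 1427 ± 536 and 1525 ± 99.7 CPM, with no call (0.10 ± 0.21, adjusted p = 0.74).

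HK2 was at 189, 58.1 and 158 CPM untreated and at 59.1, 43.5 and 35.3 CPM with TGFb (-1.56 ± 0.29, adjusted p = 0.000402). The 58.1 CPM of untreated replicate 2 lay just inside the treated range. ENO2 was at 6.38, 4.25 and 2.07 CPM and at 1.15, 0.975 and 1.2 CPM (-1.99 ± 0.49, adjusted p = 0.00337). PFKM rose from 25.5, 26.4 and 18.5 to 31.7, 30 and 29.2 CPM (0.36 ± 0.14, adjusted p = 0.0425), a small step without overlap. Of enzymes without a call, GAPDH was at 2737 ± 294 and 2423 ± 114 CPM (adjusted p = 0.261), PGK1 at 386 ± 170 and 399 ± 76.7 CPM (adjusted p = 0.914), and TPI1, the triose phosphate isomerase, at 501 ± 85.7 and 405 ± 31.8 CPM (adjusted p = 0.0638).

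EGLN1 was at 87.2, 47.5 and 70.2 CPM untreated and at 45.3, 43.6 and 53.8 CPM with TGFb (-0.52 ± 0.21, adjusted p = 0.0478), with overlapping groups. HIF1A was at 285 ± 54.1 and 346 ± 18.8 CPM and was not called (0.28 ± 0.13, adjusted p = 0.0767), nor were EGLN3 (-0.07 ± 0.39) and KDM3A (0.37 ± 0.30). NDRG1 fell from 1667, 392 and 467 to 214, 212 and 265 CPM (-1.87 ± 0.38, adjusted p = 0.000789). Its treated libraries were uniformly low, and untreated replicate 1 lay far above the other untreated ones.

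The surface carbonic anhydrases moved in opposite directions. CA9, a classical HIF target, was at 3.33, 1.92 and 3.33 CPM untreated and at 0.767, 0.609 and 0.902 CPM with TGFb (-1.90 ± 0.55, adjusted p = 0.0094), on few counts. CA12 rose from 110, 292 and 49.3 to 667, 456 and 452 CPM (1.80 ± 0.38, adjusted p = 0.000939). Neither pair of groups overlapped, and untreated replicate 2 lay nearest to the treated libraries for both.

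**Figure D3:**
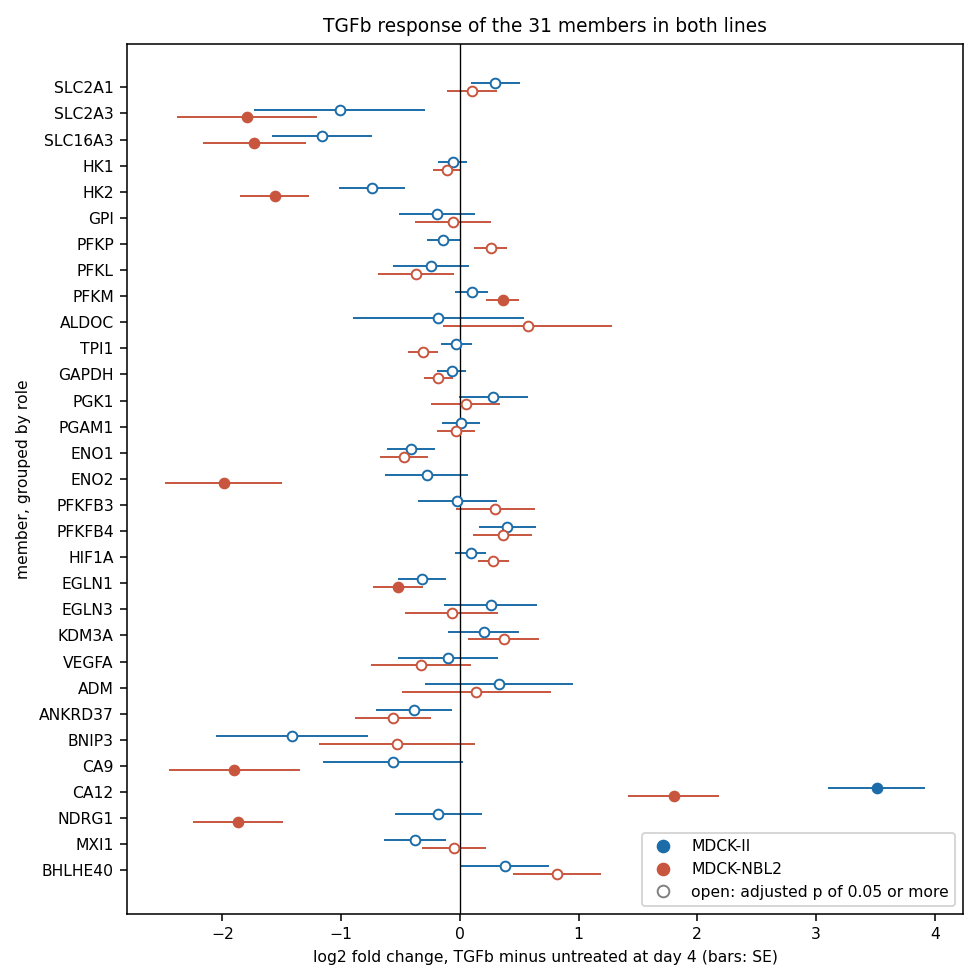
Log2 fold changes with TGFb at day 4 (horizontal axis; points with SE bars) for the 31 members (vertical axis, grouped by role) in MDCK-II and MDCK-NBL2. Filled points have an adjusted p under 0.05: CA12 in both lines (3.51 and 1.80), and in MDCK-NBL2 also PFKM and 7 members on the negative side.

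With untreated MDCK-NBL2 replicate 2 at day 4 left out, 13 members were called in MDCK-NBL2, 8 down and 5 up, against 27.7% and 27.1% of genes. The 9 calls above were kept, with CA12 at 2.70 (adjusted p = 1.74e-07), HK2 at -1.92 (1.66e-07) and NDRG1 at -2.22 (2.57e-05). ALDOC (1.98, adjusted p = 0.0236), BHLHE40 (1.14, 0.0218) and HIF1A (0.44, 0.00355) also rose, and TPI1 (-0.38, 0.0271) also fell. Calls lost without another single library were EGLN1 (untreated 1 or 3, treated 1 or 2; adjusted p from 0.0928 to 0.278), PFKM (untreated 3 or any treated library; 0.0664 to 0.196) and SLC2A3 (untreated 1, treated 1 or 3; 0.0597 to 0.148). Fitted on these 2 groups alone, SLC16A3 was the 1 member still called, where 510 of all genes were called in either direction. Replicate 1 of the treated group carries a later library number than the rest, and with the number series as a term EGLN1 and PFKM were lost (adjusted p = 0.0647 and 0.0812) and PFKP was gained as a rise (0.37, adjusted p = 0.0282).

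Whether the lines differed in their response was tested directly as the TGFb change in MDCK-NBL2 minus that in MDCK-II. No member was called by edgeR's quasi-likelihood test and 3 members had an unadjusted p under 0.05, where 2.52% of all genes were called higher and 3.18% lower. The DESeq2 Wald test called 2 members (CA12 and NDRG1) and, over all genes, 1173 genes in either direction. By edgeR the nearest were CA12 (-1.71 ± 0.52, adjusted p = 0.0585), NDRG1 (-1.69 ± 0.53, adjusted p = 0.0633) and ENO2 (-1.71 ± 0.61, adjusted p = 0.0995). CA12 started lower in MDCK-II, at 22.8 ± 2.02 against 150 ± 126 CPM (79.9 CPM without MDCK-NBL2 replicate 2), while NDRG1 was at 1539 ± 169 and 1356 ± 78.2 CPM without and with TGFb in MDCK-II. Without the MDCK-NBL2 replicate 2 that stood apart, HK2 (-1.18, adjusted p = 0.00348) and NDRG1 (-2.03, adjusted p = 0.00463) differed, with the more negative change in MDCK-NBL2, against 9.93% of genes higher and 11.2% lower. CA12 was then at -0.81 (adjusted p = 0.0908). Without untreated MDCK-NBL2 replicate 3, ENO2, CA12 and NDRG1 were called, and without untreated MDCK-II replicate 1, ENO2. Over all genes, these fits called 1060 and 867 genes in either direction, where the main fit tested 12466.

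**Figure D4:**
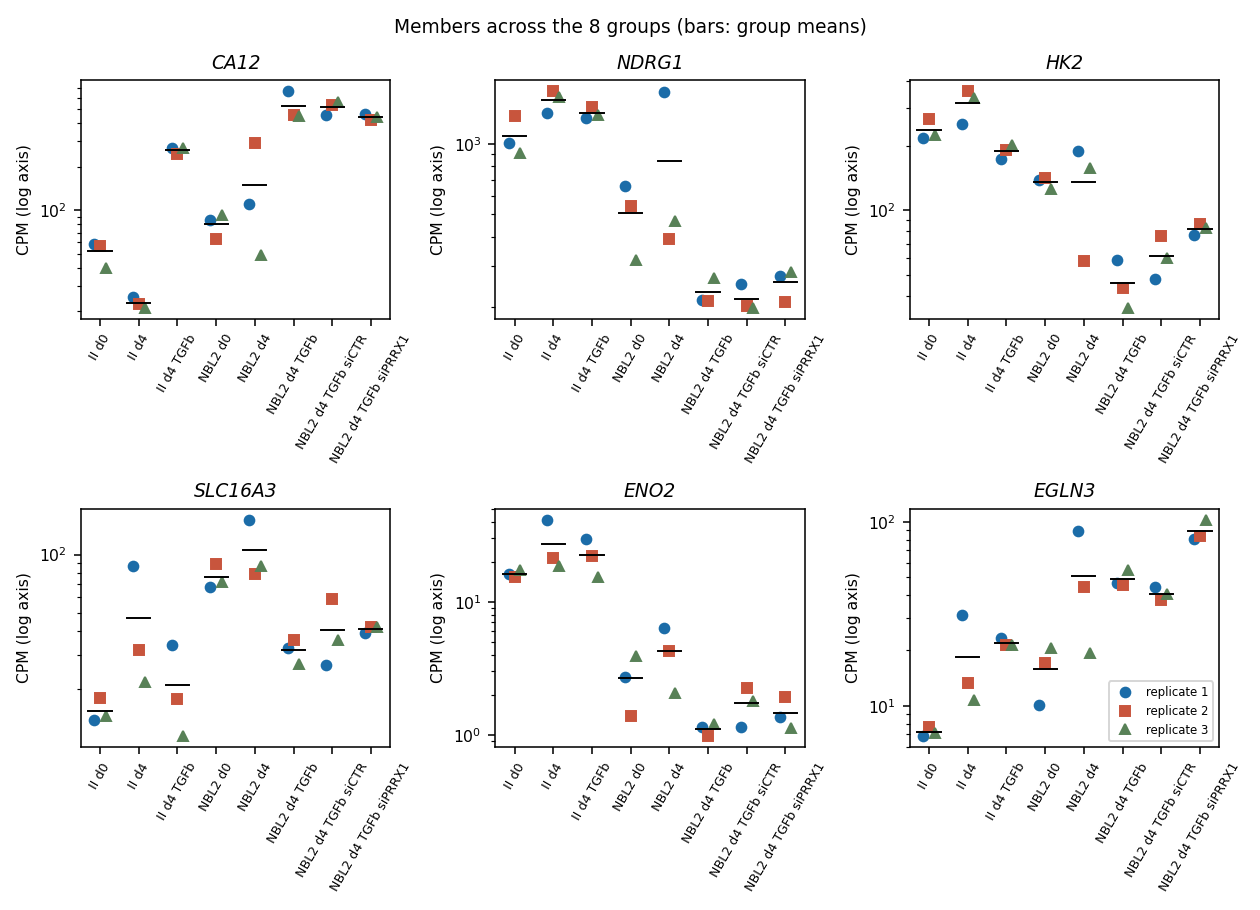
Levels (CPM, log axis) of 6 members in all 8 groups, with a symbol per replicate and a bar at each group mean; II and NBL2 are the lines, d0 and d4 the days. CA12 lay between 243 and 667 CPM in all TGFb-treated libraries, NDRG1 at or below 283 CPM in those of MDCK-NBL2, and EGLN3 between 80.3 and 103 CPM with siPRRX1.

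Levels over all 8 groups set these responses side by side. CA12 group means were 51.8, 22.8 and 260 CPM in MDCK-II (day 0, day 4, day 4 with TGFb) and 80.6, 150 and 525 CPM in MDCK-NBL2, then 517 CPM with siCTR and 442 CPM with siPRRX1. NDRG1 means were 1079, 1539 and 1356 CPM in MDCK-II and 505, 842 and 230 CPM in MDCK-NBL2, then 217 and 255 CPM. HK2 means were 236, 314 and 188 CPM and 135, 135 and 46 CPM, then 61.5 and 82 CPM. Without untreated replicate 2, the day 4 means of MDCK-NBL2 were 79.9 CPM for CA12, 1067 CPM for NDRG1 and 173 CPM for HK2. For all of these, no library of the 3 TGFb-treated MDCK-NBL2 groups overlapped the TGFb-treated MDCK-II libraries, as the plot of members across the 8 groups shows.

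Some hypoxia genes outside the member list were also called with TGFb. In MDCK-II 7 of 40 rose and 3 fell, and in MDCK-NBL2 14 rose and 8 fell. Over all genes 11.8% rose and 9.27% fell in MDCK-II, and 21.0% rose and 23.4% fell in MDCK-NBL2. EPAS1 rose by 3.31 ± 0.36 in MDCK-II (adjusted p = 1.87e-05) and by 1.17 ± 0.33 in MDCK-NBL2 (adjusted p = 0.00836), and the difference was -2.15 ± 0.47 (adjusted p = 0.0139). Without untreated MDCK-NBL2 replicate 2 these were 1.83 (adjusted p = 2.34e-05) in that line and -1.49 (adjusted p = 0.00659) for the difference. P4HA2 and PLOD2, which hydroxylate collagen in the endoplasmic reticulum, rose in both lines, P4HA2 by 1.44 ± 0.17 and 1.05 ± 0.17 (adjusted p = 2.94e-05 and 0.000118). PLOD2 went from 106 to 301 CPM in MDCK-II (adjusted p = 0.027) and from 140 to 922 CPM in MDCK-NBL2 (adjusted p = 0.000257) on average. ERO1A, an oxidase of the same compartment, fell in both (-1.32 ± 0.29 and -0.74 ± 0.29, adjusted p = 0.00459 and 0.0445). Of the other glycolysis genes, 4 of 32 rose and 3 fell in MDCK-II, close to the shares of all genes, and 9 rose and 8 fell in MDCK-NBL2. The glycogen synthase GYS1 rose in both (0.59 ± 0.16, adjusted p = 0.0156, and 1.02 ± 0.16, adjusted p = 0.000108). Without untreated MDCK-NBL2 replicate 2 the rises there were 1.38 for P4HA2 and 3.91 for PLOD2. In that line 16 hypoxia genes then rose and 11 fell and 10 glycolysis genes rose and 9 fell, against 27.1% and 27.7% of all genes. With the replicate block in MDCK-II, 8 hypoxia genes rose and 7 fell and 5 glycolysis genes rose and 4 fell, against 15.7% and 12.7% of all genes. Summed dividing cell markers were at 533 to 805 CPM untreated and 279 to 378 CPM with TGFb in MDCK-II, and at 15.4 to 76.3 CPM in the TGFb-treated groups of MDCK-NBL2, and all 3 markers fell in that line. Kidney epithelium markers summed to between 4281 and 7629 CPM untreated and between 3171 and 3610 CPM with TGFb in MDCK-NBL2, where 6 of 8 fell and none rose, with a median log2 change of -0.93. The part of these and of the fibroblast markers in the members' changes was not tested.

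The knockdown compared siPRRX1 with siCTR in TGFb-treated MDCK-NBL2. PRRX1 itself was at 33.9, 7.35 and 3.88 CPM with siCTR and at 1.11, 0.339 and 0 CPM with siPRRX1 (-4.64 ± 1.17, adjusted p = 0.0435), lower within each replicate number. GAPDH was the 1 member called, and it fell from 2603, 2701 and 2489 CPM to 1893, 1784 and 1581 CPM, by 0.57 ± 0.12 on the log2 scale (adjusted p = 0.0207). The groups did not overlap. Over all genes 0.810% rose and 1.19% fell. The members' median was -0.27, with 0.00 over all genes, and 24 of 31 members had a negative fold change.

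Other enzymes of the trunk lay on the same side with values that did not pass this test. TPI1 was at 418, 482 and 443 CPM with siCTR and at 354, 343 and 290 CPM with siPRRX1 (-0.44 ± 0.13, adjusted p = 0.0931). ENO1 was at 544, 610 and 546 CPM and at 470, 377 and 312 CPM (-0.55 ± 0.20, adjusted p = 0.176). GPI was at 393, 420 and 381 CPM and at 299, 265 and 211 CPM (-0.62 ± 0.32, adjusted p = 0.387). In all of these the groups were separate, and every replicate number had its lower value with siPRRX1. EGLN3 lay on the opposite side, at 44, 37.5 and 40.3 CPM with siCTR and at 80.3, 83.4 and 103 CPM with siPRRX1 (1.12 ± 0.39, adjusted p = 0.157). HK2 was at 61.5 ± 14.3 and 82 ± 5.03 CPM (0.42 ± 0.28, adjusted p = 0.544).

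Same-numbered libraries of these groups also deviated together, and with the replicate block in a fit of these 2 groups alone, which tested 29 members, 12 were called, 9 down and 3 up, against 12.2% and 10.3% of genes. GAPDH (-0.56, adjusted p = 0.00197), GPI (-0.63, 0.00173), ENO1 (-0.56, 0.00726), TPI1 (-0.44, 0.00591), PFKP (-0.38, 0.00895) and PGAM1 (-0.26, 0.0371) fell. VEGFA (-0.58, 0.0085), HIF1A (-0.23, 0.0313) and ADM, which encodes the vasodilator adrenomedullin (-0.98, 0.0391), fell as well. EGLN3 (1.10, 0.000187), HK2 (0.45, 0.00986) and PFKM (0.29, 0.0334) rose. With the block and all 24 libraries in the fit, GAPDH was the 1 member called (-0.57, adjusted p = 0.00801), with TPI1 at 0.0546 and ENO1 at 0.051. That fit called 263 of all genes in either direction. Without the block the GAPDH call was lost when siCTR replicates 1, 2 or 3 or siPRRX1 replicates 2 or 3 were left out (adjusted p from 0.0634 to 0.172) and without a filter on low counts (0.0678). Replicate 1 of both groups carries an earlier library number than replicates 2 and 3. It had 26655390 (siCTR) and 22172939 (siPRRX1) total counts, against at most 9144704 in the others. The part of this split in the shared deviation was not tested. With the number series as a term in the fit of all libraries, GAPDH was still the 1 member called, where 252 of all genes were called.

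**Figure D5:**
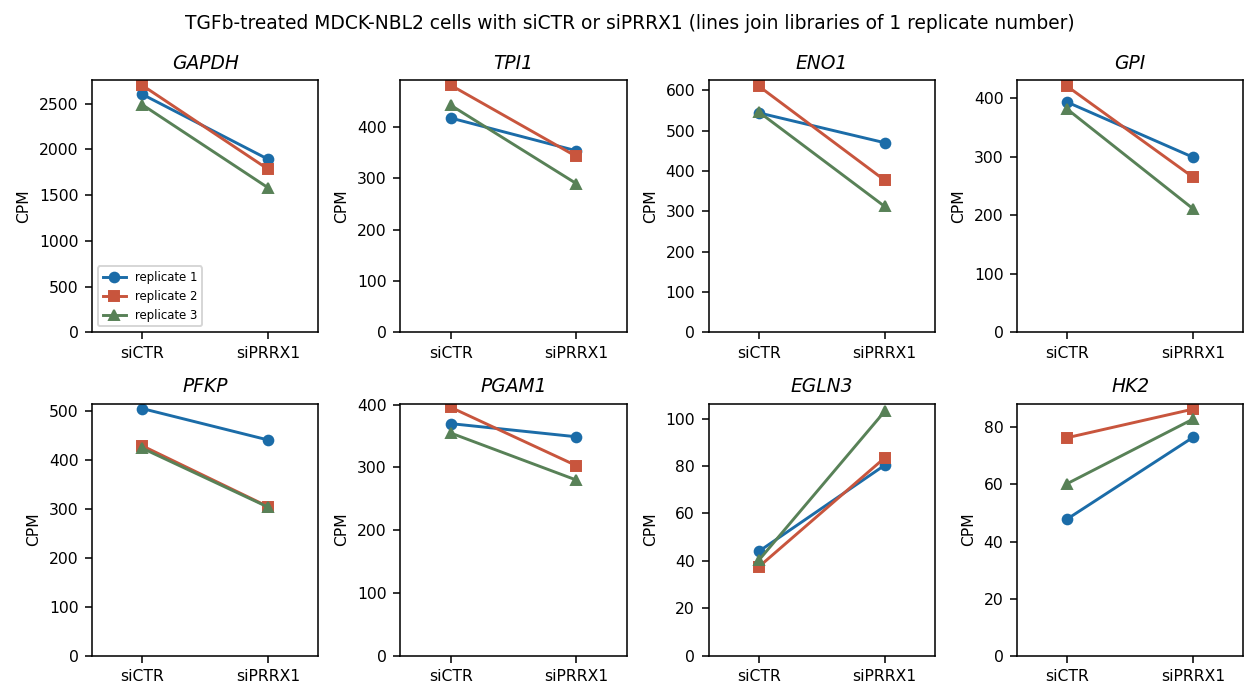
Levels (CPM, axis from 0) of 8 members in TGFb-treated MDCK-NBL2 cells with siCTR or siPRRX1, with lines joining libraries of the same replicate number. GAPDH, TPI1, ENO1, GPI, PFKP and PGAM1 were lower with siPRRX1 in each replicate number, and EGLN3 and HK2 were higher.

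Of the other glycolysis genes, LDHB, the heart-type lactate dehydrogenase, rose with siPRRX1 (0.74 ± 0.15, adjusted p = 0.0106) from 156, 171 and 167 CPM to 247, 275 and 303 CPM, and none of the 32 fell. Of the other hypoxia genes, the cytoskeletal protein gene DPYSL2 fell (-1.01 ± 0.25, adjusted p = 0.0437) and none of the 40 rose. Over all genes 0.810% rose and 1.19% fell. With the replicate block in these groups alone, 9 glycolysis genes rose and 7 fell and 5 hypoxia genes rose and 7 fell, LDHB and DPYSL2 among them. In that fit 10.3% of all genes rose and 12.2% fell. In these groups the fibroblast markers summed to between 1767 and 1948 CPM with siCTR and between 895 and 1510 CPM with siPRRX1, and the epithelial markers to between 2474 and 4417 and between 3535 and 5037 CPM. Dividing cell markers summed to between 27.3 and 76.3 CPM and between 15.4 and 27.6 CPM. Their part in the members' differences was not tested.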

How the data were processed

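The deposited values were whole-number counts per gene, 1 column per library; per the submitters' processing notes, the authors used FastQC, RSEM 1.3.0, STAR 2.5.3a and dog build CanFam3.1, with roles and strand setting not given in the sources used here. Members were matched by symbol. Counts were tested with edgeR 4.0.16 in R 4.3.3 (glmQLFit, glmQLFTest) in 1 fit of 24 libraries with a mean per group, TMM scaling, filterByExpr (minimum count 10, total 15) and 16 residual degrees of freedom. P-values were adjusted over 12466 genes by Benjamini-Hochberg, and an adjusted p under 0.05 was a call. SE is the absolute log2 change divided by the root of F. The code was tested on simulated data. Comparisons at day 4 share their untreated groups, and those of untreated cells share day 0.

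Within a comparison, called members were named, with each library's value for up to 3 per role. The members, pathway lists and tests were chosen with earlier results of these data known. Same-numbered libraries deviated together in MDCK-II with TGFb and untreated (correlation over genes from 0.251 to 0.421) and in siCTR and siPRRX1 (0.164 to 0.343), so the block is given there; the labels give the shared number only. Sequences and positions are not used here. The labels' TGFb dose unit is doubtful and left out. Alternatives were DESeq2 1.42.0 (size factors, Wald test), no filter, the block, a term for library number series, fits of the compared groups alone, and each library left out.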

Additional observations from a re-analysis of the deposited data

Results flagged for a closer look

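For HK2 and NDRG1 the response to TGFb differed between the lines by the interaction test once untreated MDCK-NBL2 replicate 2 at day 4 was left out, with TGFb changes in MDCK-NBL2 lower than in MDCK-II by 1.18 for HK2 (-1.18, adjusted p = 0.00348) and by 2.03 for NDRG1 (-2.03, adjusted p = 0.00463), on the log2 scale. In that fit 9.93% of all genes were called higher and 11.2% lower, so the 2 of 31 members called were a smaller share than that of all genes. With all libraries the values were -0.82 (adjusted p = 0.232) for HK2 and -1.69 (adjusted p = 0.0633) for NDRG1.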

How the results depend on the processing

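None of the 37 member calls changed sign under any alternative run, 17 were kept with every library left out in turn, and 9 under every alternative. The cause of the changes below was not tested. For each comparison the share of tested genes called comes first, then the number of members called. Some fits have the number of genes called in place of the share, and the number of genes tested differed between fits.

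For TGFb in MDCK-II (21.1% and 1), leaving out single libraries gave 9.99% to 21.4% and 1 to 2 members. The groups alone gave 2485 genes and 2 members, and DESeq2 2922 genes and 2 members. A pooled fit lacking untreated MDCK-NBL2 replicate 2 gave 3862 genes and 3 members. For TGFb in MDCK-NBL2 (44.3% and 9), single libraries gave 35.3% to 54.8% and 6 to 13 members, and the groups alone 4.48% and 1. For the difference (5.70% and 0), single libraries gave 2.44% to 21.1% and 0 to 3 members, the groups alone 0.395%, and DESeq2 9.23% and 2. For siPRRX1 (2.00% and 1), single libraries gave 0.424% to 1.86% and 0 to 2 members, no filter 0.824% and 0, the pooled fit 5.21% and 2, the groups alone 10.3% and 5, and DESeq2 3.63% and 2. For day 4 in MDCK-II (9.81% and 7), single libraries gave 4.05% to 10.7% and 3 to 10 members, and the pooled fit 16.5% and 11. The number series gave 1143 genes and 4 members there, and DESeq2 1641 genes and 13 members. For day 4 in MDCK-NBL2 (17.7% and 7), single libraries gave 5.80% to 41.7% and 2 to 16 members, and the groups alone 0% and 0. For the lines at day 0 (28.5% and 12), single libraries gave 21.4% to 24.6% and 7 to 11 members, and the groups alone 5017 genes and 20 members.

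With the replicate block in the groups alone, TGFb in MDCK-II had 3327 genes and 5 members, and siPRRX1 22.5% of genes and 12 members. With the block over all libraries TGFb in MDCK-II had 2822 genes and 2 members. Where the numbers did not clearly pair the samples, the block in the groups alone gave 0.351% and 0 members for TGFb in MDCK-NBL2 (correlations from 0.037 to 0.282). It gave 0.403% for the difference, 4.27% and 4 members for day 4 in MDCK-II, and 0% and 0 for day 4 in MDCK-NBL2. For the lines at day 0 the block in the groups alone gave 5261 genes and 21 members. There same-numbered libraries correlated at 0.073 to 0.169, and libraries with different numbers at -0.13 to 0.028.

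Low members such as CA9, SLC2A3 and ENO2 rest on few counts, 15 for CA9 and 22 for ENO2 in MDCK-NBL2 with TGFb, which limits their precision.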

Other observations

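Cells given TGFb and the control siRNA were close to cells given TGFb alone for the members: the ratio of group means ran from 0.817 to 1.55 with a median of 1.07. The groups did not overlap for 2 of the 31 members, EGLN3 (40.6 against 49 CPM) and PGAM1 (374 against 337 CPM). The share of all genes without overlap is not given here, so no difference is read from these members. Both groups mix earlier and later library numbers, in different proportions. These groups were not tested against each other.

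Among genes outside the member list, ENO3, the muscle enolase, was at 43.4, 43 and 49.6 CPM in MDCK-NBL2 at day 0 against 3.45, 3.5 and 2.76 CPM in MDCK-II (3.78 ± 0.50, adjusted p = 1.08e-05). It was at 91.3, 120 and 104 CPM with siCTR and 33, 42.8 and 23.3 CPM with siPRRX1 (-1.66 ± 0.44, adjusted p = 0.0545), without overlap, and it was called with the replicate block in these groups alone. ENO2 ran opposite between the lines, while ENO1 had no call at day 0.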
